A study of Mus musculus with 15 samples.

Results

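Expression of 6 potassium channel genes, Kcnq3, Kcnq5, Kcnh1, Kcnh2, Kcnh3 and Kcnh7, was followed in neurons labelled with green fluorescent protein (GFP) from the somatosensory cortex of young mice. The genes were taken by symbol from the Kv7 (Kcnq) and EAG (Kcnh) families, and every probe set annotated to one of these symbols alone was read. This gave 6 of the 18193 genes that have such a probe set, and 13 of the 45101 probe sets on the array. Kcnq3 and Kcnq5 encode Kv7 channels, Kcnh1 encodes an EAG channel, and Kcnh2 and Kcnh7 encode ERG channels. Kcnh3 encodes a channel of the ELK branch of the EAG family, so it is neither ERG nor EAG in the narrow sense.

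All animals were G42 transgenic mice, in which GFP marks a subset of cortical inhibitory neurons of the parvalbumin class, and there was no other genotype or treatment. The 5 groups were defined by age, postnatal day 7 (P7), P10, P15, P25 or P40 (the last covering animals up to P45). Each had 3 arrays from 3 animals. Coronal slices were incubated in Pronase E, the primary somatosensory area (S1) was cut out and dissociated, and between 23 and 85 fluorescent neurons per sample were collected by hand. Their RNA was amplified in 2 rounds and hybridised to Affymetrix whole-genome mouse arrays, and the deposited values are log2 expression levels after GCRMA, with 1 value per probe set and array. The number of neurons per sample also differed between ages. It was 52 to 85 at P7, 47 to 72 at P10, 23 to 45 at P15, 48 to 55 at P25 and 38 to 60 at P40.

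Kv7 channels open slowly near the resting potential and carry the M-current, a non-inactivating potassium current that holds back repetitive firing and is shut off when Gq-coupled receptors deplete membrane phosphatidylinositol bisphosphate. ERG channels inactivate quickly on depolarisation and recover before they close, so they pass current mainly as the membrane repolarises. EAG channels are slow delayed rectifiers inhibited by calcium-bound calmodulin, and ELK channels open at more negative potentials.

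For the members whose level changed most in each direction, Kcnh2 and Kcnq5, the 250 bases before an annotated start are shown, because a reader may wish to set the promoters of a rising and a falling channel gene side by side. The RefSeq promoter table (build GRCm38.p6) listed 4 of the 6 members with 5 starts. The Kcnh2 window is chr5:24329592-24329841 on the minus strand. Its start lies inside the gene, 22093 bases from the gene's 5′ end (gene chr5:24319589-24351684). The Kcnq5 window is chr1:21962651-21962900 on the minus strand, directly before the 5′ end of the gene (chr1:21398399-21962650). Sequences run 5′ to 3′ in the direction of the gene, and capitals mark GC boxes (GGGCGG, on either strand).
Kcnh2 promoter: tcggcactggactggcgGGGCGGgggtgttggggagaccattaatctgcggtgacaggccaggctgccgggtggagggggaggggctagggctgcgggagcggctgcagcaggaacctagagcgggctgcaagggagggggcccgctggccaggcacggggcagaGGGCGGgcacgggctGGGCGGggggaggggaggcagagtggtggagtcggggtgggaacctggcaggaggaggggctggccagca
Kcnq5 promoter: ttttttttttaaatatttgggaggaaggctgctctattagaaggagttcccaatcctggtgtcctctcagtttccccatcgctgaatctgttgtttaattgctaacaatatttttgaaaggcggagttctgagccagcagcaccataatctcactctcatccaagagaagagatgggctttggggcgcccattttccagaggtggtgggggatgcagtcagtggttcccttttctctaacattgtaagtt
The Kcnh2 window holds 3 GC boxes and is 73.6% G and C, and the Kcnq5 window holds 0 and is 44.4% G and C, against a median of 52.4% over all promoters in the table. Of 32851 promoter windows of the same 250 bases, 32.7% held GGGCGG and 8.47% held it at least 3 times. Neither window held TATAAA, present in 12.4% of all windows, or AAGGTCA, a half-site of oestrogen-related receptors present in 4.08%. The table holds another Kcnq5 start 708 bases inside the gene, whose window (chr1:21961943-21962192) is 60.8% G and C and also holds 0 GC boxes, so the low G and C content applies to the upstream start only. These are matches of letters and not measured sites.

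The arrays were alike in overall level, with medians from 3.21 to 3.46 and between 33.8 and 35.0% of probe sets over 5, the level taken here as the limit of background. Arrays of the same age correlated at 0.969 to 0.991 over the probe sets, and arrays of different ages at 0.929 to 0.988. Some arrays stood apart. Spiked hybridisation controls averaged 2.56 and 2.54 on P15 replicates 2 and 3, with no other array under 9.46, the 3′ beta-actin control was lowest on P25 replicate 2 (11.00), and the interneuron peptide Sst read 1.72 on P40 replicate 1 against 11.04 and 12.24 on the other P40 arrays. P40 replicate 1 was also the lowest of its age for Crh (4.97 against 11.84 and 12.73) and Reln (7.80 against 9.58 and 10.66). For Npy it was the highest (12.48 against 12.14 and 12.20). The 3′ minus 5′ beta-actin difference, larger when the amplified RNA is shorter, went from a mean of 5.77 at P7 to 3.93 at P40, and its part in the changes was tested only as a covariate. Of 10 markers of parvalbumin interneurons, 8 at P7 and 9 from P10 on exceeded 5 on all 3 arrays. Erbb4 exceeded 5 on 1 array only (5.27). Pvalb itself was under 5 at P7, at 3.62 ± 0.72 (SD, n = 3) against 14.28 ± 0.20 at P40. Of 9 tested markers in this list, 7 were called higher and 2 lower at P40 than at P7, beside 27.5% and 17.6% of all tested genes. Those called lower were Lhx6 (log2 difference -0.83, limma adjusted p = 0.0027) and Sox6 (-0.92, limma adjusted p = 0.013). Sst, counted below among markers of other interneuron classes, read 12.92, 10.90 and 10.76 at P7. The markers by themselves therefore do not separate the labelled class from other interneurons at P7. At later ages markers of other classes were high as well. Sst ran from 10.10 to 13.04 at P15, and Crh was 13.73 ± 0.36 at P25 (SD, n = 3). At P40 Npy was 12.27 ± 0.18 and Cck 11.96 ± 0.42, while 3 of 8 such markers were at or under 5 on all P40 arrays. Of 8 excitatory neuron markers only Cux2 exceeded 5 on all arrays, and the vesicular glutamate transporter Slc17a7 stayed between 2.41 and 2.62. The summed linear signal of the excitatory markers was 1071 to 2723 at P7 and 1604 to 2324 at P40. On the log2 scale these sums ran from 10.065 to 11.411 and from 10.648 to 11.183. Cux2 alone ran from 9.96 to 11.36 and from 10.59 to 11.14, so the sums were mostly Cux2. That of 8 markers of other interneuron classes, of which 5 at P7 and 3 at P40 exceeded 5 on all arrays of the age, was 8875 to 19064 at P7 and 8898 to 23188 at P40. Between these ages it was 11278 to 18810 at P10, 15031 to 51432 at P15 and 21311 to 37988 at P25. Within that list Cck rose 11.7-fold (adjusted p = 8.2e-07) and Reln fell 6.49-fold (adjusted p = 0.00078). Among glial markers near the limit of 5, called between P7 and P40, S100b went from 3.46 ± 0.11 to 5.96 ± 2.21, Slc1a2 from 4.85 ± 0.95 to 3.50 ± 0.01 and Csf1r from 5.11 ± 0.92 to 3.28 ± 0.07 (SD, n = 3). Their part in the changes of the channel genes was not tested. Endothelial and mural markers (6 of 6) were at or under 5 on all arrays and microglial markers (7 of 7) on all arrays from P15 on.

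Of the 6 channel genes, 4 were expressed over background and all 4 differed between P7 and P40. Kcnh2 rose 5.88-fold and Kcnh1 2.89-fold, whereas Kcnq5 fell 2.75-fold and Kcnq3 1.58-fold. Kcnh3 and Kcnh7 did not exceed 5 on any of the 15 arrays. A gene was tested where its brightest probe set exceeded 5 on at least 3 arrays, which 4 of the 6 members and 9663 of the 18193 genes did, and a difference was called where limma's Benjamini-Hochberg adjusted p over those 9663 genes was under 0.05. Calls were common between these ages: 45.2% of all tested genes were called, 27.5% higher and 17.6% lower at P40, beside 2 members higher and 2 lower. The call of Kcnh1 was lost in 9 of 28 other settings, and its other probe set was not called. The 3 arrays of P7 and of P40 did not overlap for any of the 4 members, which held for 55.7% of all tested genes. The median of all tested genes was 0.18 higher at P40 than at P7, and relative to that median the log2 changes were 2.38 for Kcnh2, 1.35 for Kcnh1, -1.63 for Kcnq5 and -0.84 for Kcnq3. In RNA from pooled cells, fewer cells expressing a channel and less RNA per cell cannot be told apart.

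**Figure D1:**
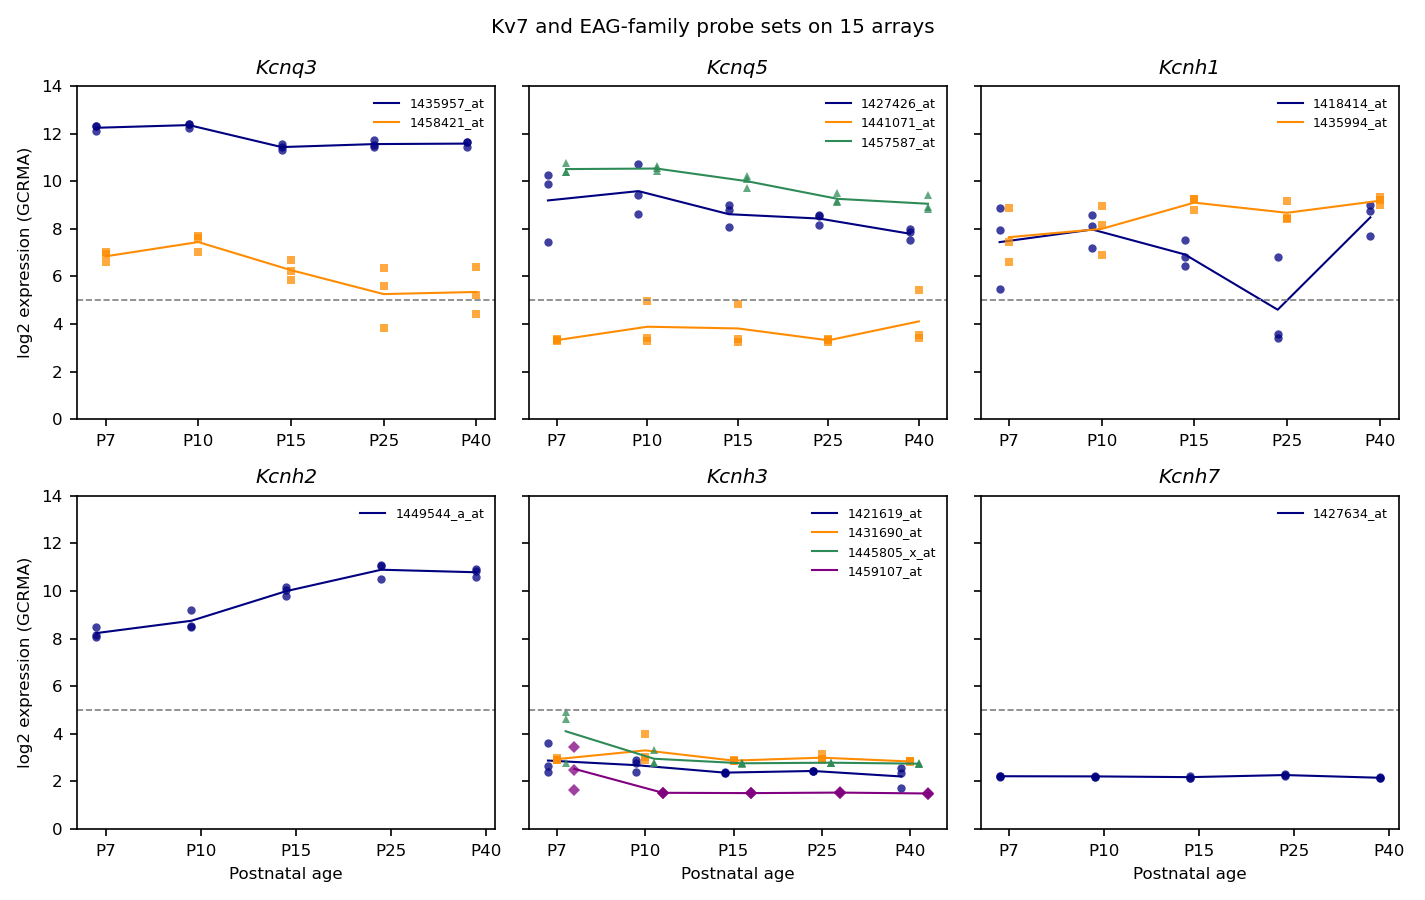
Log2 expression (GCRMA) of the 13 probe sets of the 6 genes at the 5 ages; ages are evenly spaced and not to scale, points are single arrays, lines join the means of 3 arrays, and the dashed line marks the background limit of 5. Kcnh2 climbs from 8.23 at P7 to 10.79 at P40, Kcnq5 and Kcnq3 step down, and every probe set of Kcnh3 and Kcnh7 lies under the dashed line.

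Among the Kv7 genes, Kcnq3 (chr15:65986374-66286636) encodes a subunit that commonly joins other Kv7 subunits in the neuronal M-channel. Its brighter probe set, 1435957_at, read 12.10, 12.32 and 12.31 at P7, 12.42, 12.24 and 12.41 at P10, 11.42, 11.57 and 11.32 at P15, 11.45, 11.72 and 11.50 at P25, and 11.43, 11.65 and 11.66 at P40. All 6 arrays of P7 and P10 lay above all 9 arrays of the later ages, and the later ages overlapped one another. The log2 difference of P40 from P7 was -0.66 (SE 0.15, 95% interval -0.98 to -0.35, limma adjusted p = 0.0023). The step from P10 to P15 was -0.92 (SE 0.15, limma adjusted p = 0.0033), a 1.90-fold fall and larger than the difference between P7 and P40. The other steps were small and upward in the mean, 0.11 from P7 to P10, 0.13 from P15 to P25 and 0.02 from P25 to P40, with adjusted p of 0.76, 0.72 and 0.98. The P10 to P15 call was lost with the number of picked cells as a covariate (-0.88, adjusted p = 0.11), without P15 replicates 2 and 3 (-0.94, adjusted p = 0.13) and in a fit of those 2 ages alone (-0.92, adjusted p = 0.06).

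The other Kcnq3 probe set, 1458421_at, was dimmer. It read 7.01, 6.93 and 6.60 at P7, 7.60, 7.71 and 7.02 at P10, 6.25, 6.68 and 5.87 at P15, 5.60, 6.36 and 3.82 at P25, and 6.39, 5.21 and 4.43 at P40. Its P7 and P40 arrays did not overlap, while P25 and P40 each held 1 array under 5. The log2 difference of P40 from P7 was -1.50 (SE 0.58, adjusted p = 0.051 in the fit over all 15381 tested probe sets), which missed the threshold, although the moderated F test for any difference between ages called it (adjusted p = 0.022). The adjusted p was under 0.05 in 3 of 15 fits that left out 1 array (without P25 replicate 2, P25 replicate 3 or P40 replicate 1) and in 6 of 12 other settings. Both Kcnq3 probe sets had the same sign, and they correlated at 0.65 over the 15 arrays. The mean of both probe sets gave -1.08 for P40 minus P7.

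Kcnq5 encodes a Kv7 subunit found in cortical neurons, alone or together with the Kcnq3 product. Probe set 1457587_at read 10.40, 10.76 and 10.37 at P7, 10.64, 10.54 and 10.41 at P10, 10.20, 10.09 and 9.71 at P15, 9.15, 9.52 and 9.11 at P25, and 8.91, 9.44 and 8.81 at P40. The P15 arrays lay below all P10 arrays and above all P25 arrays, and P25 and P40 overlapped. The log2 difference of P40 from P7 was -1.46 (SE 0.24, 95% interval -1.96 to -0.95, limma adjusted p = 0.00018). The fall was spread over P10 to P15 (-0.53, SE 0.24, adjusted p = 0.14) and P15 to P25 (-0.74, SE 0.24, adjusted p = 0.087), and neither step passed the test by itself. The steps from P7 to P10 (0.02) and from P25 to P40 (-0.21) had adjusted p of 0.98 and 0.85.

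The remaining Kcnq5 probe sets were less regular. Probe set 1427426_at read 10.25, 9.90 and 7.43 at P7, 10.70, 8.64 and 9.41 at P10, 9.00, 8.78 and 8.06 at P15, 8.60, 8.15 and 8.55 at P25, and 7.53, 7.88 and 7.97 at P40. One P7 array, replicate 3, lay below every P40 array, and the other P7 arrays lay above all of them. The log2 difference was -1.40 (SE 0.62, adjusted p = 0.086) with that array and -2.28 (adjusted p = 0.0025) without it. Without P7 replicate 1 it was -0.87 (adjusted p = 0.3) and without P7 replicate 2 it was -1.05 (adjusted p = 0.26). Probe set 1441071_at exceeded 5 on 1 array only (5.42 on P40 replicate 1) and was not tested. The tested probe sets of Kcnq5 correlated at 0.65 over the 15 arrays. With the mean of all 3 probe sets, the dim one included, the change of Kcnq5 was -0.69 (adjusted p = 0.036) in place of -1.46.

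Kcnh1 (chr1:192189144-192510159) encodes the EAG channel of this set. Probe set 1435994_at read 7.44, 6.61 and 8.89 at P7, 6.88, 8.96 and 8.15 at P10, 8.79, 9.26 and 9.25 at P15, 8.43, 9.16 and 8.44 at P25, and 9.21, 9.32 and 9.01 at P40. The youngest ages were the most scattered, with an SD of 1.16 at P7 and 1.05 at P10 against 0.16 at P40, and the highest P7 array (8.89) lay just under the lowest P40 array (9.01). The log2 difference of P40 from P7 was 1.53 (SE 0.53, 95% interval 0.40 to 2.66, limma adjusted p = 0.029). No step between neighbouring ages was called, the largest being 1.10 from P10 to P15 (adjusted p = 0.18), and neither was the F test over ages (adjusted p = 0.079). That F test was called with the mean of probe sets (adjusted p = 0.042), array weights (0.032), without P7 replicate 3 (0.012) and without P10 replicate 2 (0.034). The call between P7 and P40 was lost under 9 of 28 other settings. Without P7 replicate 2 the difference was 1.01 (adjusted p = 0.15), without P7 replicate 1 it was 1.43 (0.069), and without P40 replicates 1, 2 or 3 it was 1.52, 1.46 or 1.61 (adjusted p = 0.069, 0.076 and 0.053). Without P7 replicate 3 it was 2.15 and called. With the 3′ minus 5′ actin difference as a covariate the adjusted p was 0.12.

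The other Kcnh1 probe set, 1418414_at, followed another course, and the correlation of both over the 15 arrays was -0.04. It read 5.49, 7.96 and 8.88 at P7, 8.60, 8.14 and 7.18 at P10, 6.81, 7.53 and 6.43 at P15, 3.41, 3.57 and 6.82 at P25, and 8.73, 7.72 and 9.00 at P40. The P25 arrays were low, 2 of 3 of them under 5, and did not overlap with P40. Between P7 and P40 its difference was 1.04 (SE 0.89, adjusted p = 0.37), not called, and it was 0.07 without P7 replicate 1 and 1.76 without P7 replicate 3. Between P25 and P40 it was 3.88 higher (SE 0.89, adjusted p = 0.044), a contrast singled out after its values were seen, in which 1.74% of all tested probe sets were called. Over 15 fits that left out 1 array and 11 other settings the difference ran from 2.87 to 4.99 and the adjusted p from 0.00047 to 0.24, and the call was lost in 11 of the former and 7 of the latter. The lost ones included fits without P25 replicate 1 (3.29), P25 replicate 2 (3.36) and P40 replicates 1, 2 or 3 (3.76, 4.26 and 3.62). Its F test over ages was called (adjusted p = 0.018), as for 44.6% of tested probe sets. At P25 the summed linear signal of 7 oligodendrocyte-lineage markers was 1553 to 3386, against at most 550 on every array of the other ages. Mbp read 11.58, 11.56 and 10.48 and Mobp 7.71, 8.37 and 6.34 at P25, while the myelin genes Mog, Mag and Cldn11 stayed at or under 5 on all arrays. The summed signal of 7 astrocyte markers was 270 to 1209 at P25 and 367 to 1020 at P10. The part of these markers in the P25 values was not tested.

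**Figure D2:**
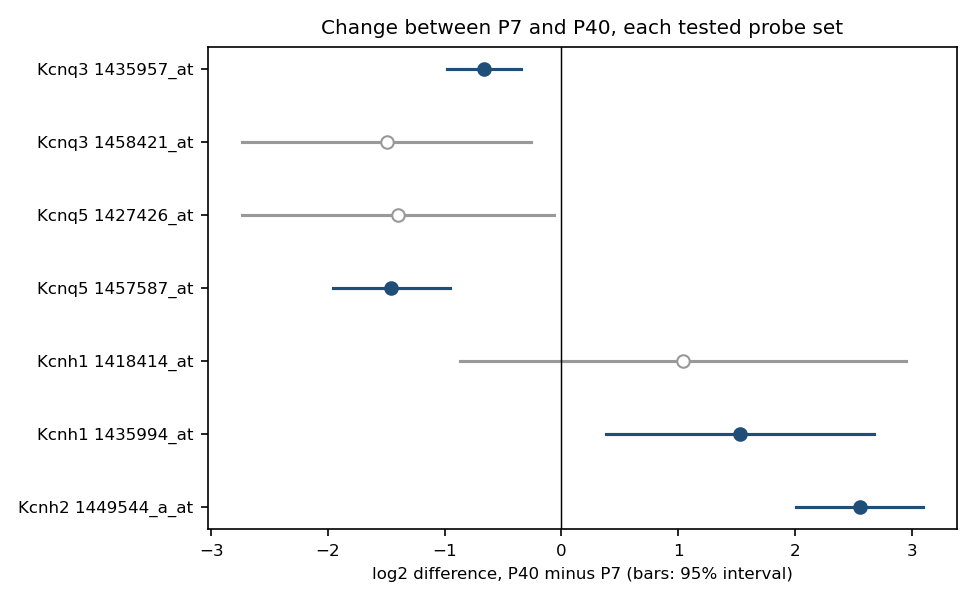
Log2 difference between P7 and P40 for each of the 7 tested probe sets, with bars for the 95% interval and filled points where the adjusted p was under 0.05. The probe sets of Kcnq3 and Kcnq5 all lie to the left of 0 and those of Kcnh1 and Kcnh2 to the right; the interval of Kcnh1 probe set 1418414_at, from -0.87 to 2.95, crosses 0.

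Counted by probe set, 7 of the 13 passed the filter and 4 of these 7 were called between P7 and P40, 2 higher and 2 lower. Over all 15381 tested probe sets 41.9% were called, 26% higher and 15.9% lower. Where a member had a second tested probe set (Kcnq3, Kcnq5 and Kcnh1), it had the same sign and missed the threshold. The position of the probes on the transcripts was not analysed here.

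Kcnh2 encodes the ERG channel best known for cardiac repolarisation, which is also made in many neurons. Its only probe set, 1449544_a_at, read 8.49, 8.15 and 8.06 at P7, 8.50, 9.20 and 8.55 at P10, 9.78, 10.16 and 10.05 at P15, 10.53, 11.06 and 11.10 at P25, and 10.85, 10.93 and 10.59 at P40. Each age up to P25 lay wholly above the one before it, and P25 and P40 overlapped. The log2 difference of P40 from P7 was 2.56 (SE 0.25, 95% interval 2.01 to 3.10, limma adjusted p = 2.3e-06), larger in size than the change of 91% of the tested genes. It was called in all 15 fits that left out 1 array (2.47 to 2.69) and in all 13 other settings (2.34 to 2.56). The step from P10 to P15 was 1.25 (SE 0.25, adjusted p = 0.011), a 2.37-fold rise. The step from P15 to P25, 0.90 (SE 0.25, adjusted p = 0.055), just missed the threshold, and the steps from P7 to P10 (0.52) and from P25 to P40 (-0.11) had adjusted p of 0.31 and 0.95. The P10 to P15 call was lost without P15 replicate 2 (1.16, adjusted p = 0.06), without P15 replicates 2 and 3 (1.03, adjusted p = 0.37), with the 3′ minus 5′ covariate (1.16, adjusted p = 0.063), with cells picked as a covariate (1.23, adjusted p = 0.2) and in a fit of those 2 ages alone (1.25, adjusted p = 0.078). Without P10 replicate 2 the P15 to P25 step was called (0.90, adjusted p = 0.046). It was also called with quantile normalisation (0.92, adjusted p = 0.045), the mean of probe sets (0.90, adjusted p = 0.048) and array weights (0.86, adjusted p = 0.012).

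The remaining members stayed at background. The 4 probe sets of Kcnh3 (chr15:99224517-99242818) exceeded 5 on none of the 15 arrays. The highest values were 4.93 and 4.62 for 1445805_x_at on P7 replicates 3 and 2, where P7 replicate 1 read 2.78 and every P15, P25 and P40 array lay between 2.74 and 2.80. Probe set 1459107_at read 2.49, 1.65 and 3.44 at P7 and at most 1.54 on every later array. The other probe sets of Kcnh3 lay between 1.73 and 3.60 (1421619_at) and between 2.82 and 3.99 (1431690_at). The single probe set of Kcnh7 (chr2:62693410-63184287), the other ERG gene, ranged from 2.13 to 2.33. No change can be measured for either gene at this signal. In a fit without the filter Kcnh3 had a difference of -1.36 (adjusted p = 0.018) and Kcnh7 one of -0.06 (adjusted p = 0.13), all of it below the background limit. That fit called 8295 of 18193 genes.

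Between neighbouring ages, the steps of the 4 tested members gave 2 calls, both from P10 to P15, where Kcnh2 rose and Kcnq3 fell. In that step 11.4% of all tested genes were called, 8.57% higher and 2.79% lower, and the median of all genes was 0.20 higher at P15, so that the changes relative to it were -1.13 for Kcnq3 and 1.04 for Kcnh2. In the same step the summed linear signal of 7 astrocyte markers was 367 to 1020 at P10 and 61.5 to 131.6 at P15. The astrocyte transporter Slc1a2, included in that sum, went from 8.44 ± 0.13 to 4.07 ± 0.20 (SD, n = 3). S100b and Aldh1l1 went the other way in the mean, from 3.49 ± 0.05 to 4.76 ± 1.23 and from 2.77 ± 0.002 to 3.53 ± 1.33. On P10 replicate 1, Gja1, Aqp4 and Slc1a3 read 3.25, 2.66 and 3.68, and Slc1a2 read 8.30. Gfap was at or under 5 on all arrays. The part of these markers in the calls was not tested. Fewer neurons were also picked per sample at P15 (23 to 45) than at P10 (47 to 72). Neither call held with the number of picked cells as a covariate (adjusted p = 0.11 for Kcnq3 and 0.2 for Kcnh2). No member was called in the other steps, in which 3.6% (P7 to P10), 4.86% (P15 to P25) and 0.673% (P25 to P40) of all genes were. The arrays of neighbouring ages did not overlap for 1 member from P7 to P10 (Kcnh2; 17.2% of all genes), for 3 from P10 to P15 (all but Kcnh1; 30.1%), for 2 from P15 to P25 (Kcnq5 and Kcnh2; 26.8%) and for 0 from P25 to P40 (23% of all genes). The F test for any difference between ages called 3 of 4 members, Kcnq3 (adjusted p = 0.00024), Kcnq5 (0.00021) and Kcnh2 (2.6e-06), and 47.2% of all tested genes.

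**Figure D3:**
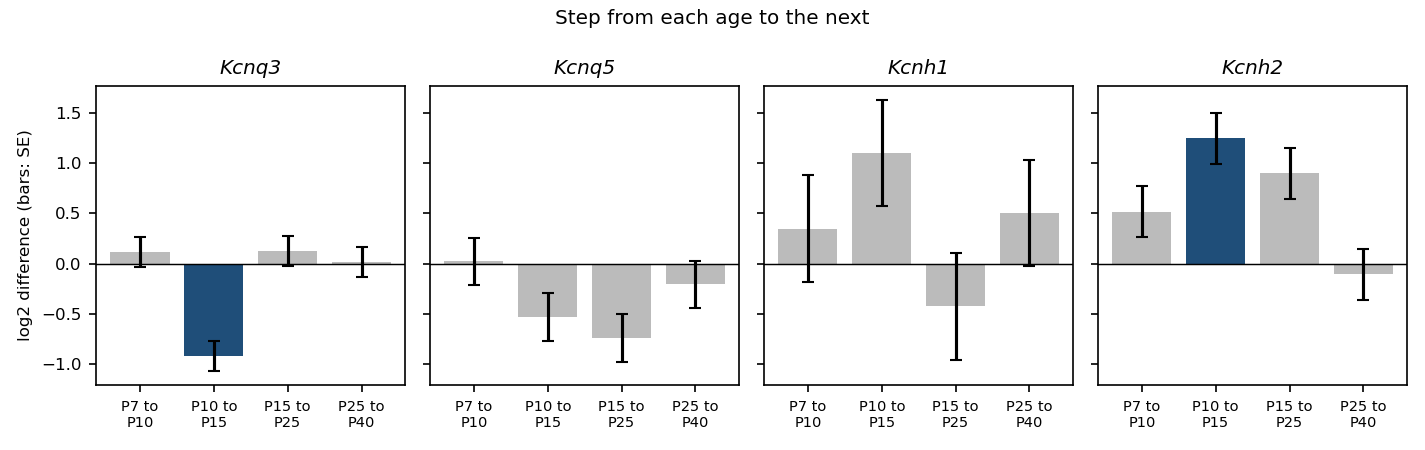
Log2 difference at each step between neighbouring ages for the 4 tested genes, with bars for the SE; dark columns passed limma's adjusted p of 0.05. The dark columns are the P10 to P15 steps of Kcnq3 (-0.92) and Kcnh2 (1.25).

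Over the 15 arrays the Kv7 genes and Kcnh2 ran in opposite directions. Pearson's r was 0.76 between Kcnq3 and Kcnq5, -0.85 between Kcnq3 and Kcnh2 and -0.88 between Kcnq5 and Kcnh2. Kcnh1 had r of 0.67 with Kcnh2, -0.63 with Kcnq3 and -0.57 with Kcnq5. These values share the arrays and the course of age, so they describe the series and are no test.

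Of the other 9662 tested genes, those most like each member over the 15 arrays were found by the same r. For Kcnq3 they were the transcription factor Sox12 (0.92), 2900026A02Rik (0.92) and Rhobtb1 (0.90), and only these 3 genes exceeded 0.9. For Kcnq5 they were Ybx3 (0.97), the T-type calcium channel Cacna1g (0.97) and the lipoprotein receptor Scarb1 (0.95), among 86 genes over 0.9. Kcnh1 was most like Gripap1 (0.95), Taf1 (0.92) and the ferredoxin gene Fdx1 (0.91), among 4 genes over 0.9. Kcnh2 was most like Ttc39a (0.98), the acid-sensitive leak potassium channel Kcnk3 (0.98) and Ankrd40 (0.98), among 345 genes over 0.9. Kcnk3 went from 5.83 at P7 over 6.92, 8.43 and 9.88 to 9.73 at P40, and reached its highest mean at P25 as Kcnh2 did.

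Other genes of these families and their accessory subunits were too dim to test where they had a probe set of their own, which 3 of 7 other Kv7 and EAG-family genes did; the remaining 4 were not analysed here. Kcnq1 lay between 2.55 and 2.67 and Kcnh5 between 3.28 and 4.47. Kcnh8, an ELK channel gene like Kcnh3, exceeded 5 on 1 array, with 4.66, 2.52 and 5.52 at P7 and 2.52 ± 0.01 (SD, n = 3) at P40. Of the KCNE genes, whose products are small partner subunits of Kv7 and ERG channels, 5 were on the array and 0 were tested. Only Kcne4 exceeded 5, on 1 array (5.50).

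Genes for the upstream regulation of Kv7 channels changed in both directions, with a share of calls near that of all genes. Of 14 tested genes for Gq-coupled receptors and second messengers, 5 rose, 2 fell and 7 did not pass between P7 and P40, with a median log2 difference of 0.80 against 0.18 for all genes. The 7 of 14 called stand beside 45.2% of all tested genes, 27.5% higher and 17.6% lower. Pi4ka and Pi4k2a, kinases at the start of phosphatidylinositol bisphosphate synthesis, rose 2.03-fold (log2 1.02, SE 0.14, adjusted p = 5.2e-05) and 2.97-fold (log2 1.57, SE 0.23, adjusted p = 9.1e-05). The glutamate receptor gene Grm5 fell by 1.09 on the log2 scale (adjusted p = 0.0061) and Gna11, a G protein alpha subunit of the Gq class, fell by 0.98 (adjusted p = 0.0061). The call of Gna11 was lost with the 3′ minus 5′ covariate (-0.95, adjusted p = 0.051). The muscarinic receptor gene Chrm1, classically tied to the M-current and named here after its values were seen, read 6.65, 6.55 and 7.62 at P7 and 7.49, 8.11 and 7.62 at P40, a difference of 0.80 that missed the threshold (adjusted p = 0.051).

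Of 11 tested genes for Kv7 binding partners and turnover, 2 rose, 2 fell and 7 did not pass, with a median of -0.14, so that 4 of 11 were called beside 45.2% of all tested genes. Sptbn4, the spectrin of the axon initial segment where Kv7 channels gather, rose 4.16-fold, from 7.26, 6.43 and 6.65 at P7 to 8.71, 8.85 and 8.96 at P40 (adjusted p = 3.9e-05). Nfasc, an adhesion molecule of the same place, rose by 0.75 on the log2 scale (adjusted p = 0.031). Its call was lost in 4 of 15 fits that left out 1 array (P7 replicates 1 or 2, P40 replicates 1 or 2; 0.56 to 0.81) and in 4 of 13 other settings. Ank3, the ankyrin that anchors Kv7 channels there and likewise named after its values were seen, went from 11.31 ± 0.24 to 11.17 ± 0.11 (SD, n = 3; adjusted p = 0.59). Stx1a, syntaxin, which binds Kv7 channels besides its role in vesicle release, fell 8.12-fold, from 12.73, 12.46 and 13.19 to 8.77, 10.51 and 10.05 (adjusted p = 2.7e-05). The ubiquitin ligase gene Nedd4l fell by 1.16 (adjusted p = 0.00071), but the mean of its probe sets gave -0.26 (adjusted p = 0.29).

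Of 11 tested genes in a list for ERG chaperones and folding, 5 rose, 0 fell and 6 did not pass, with a median of 0.81. The 5 of 11 called are near the 45.2% of all tested genes, of which 27.5% rose. The list is mostly of general chaperones, with many other clients, and not all of its genes encode folding chaperones. Whether its members help or hinder ERG channels in these neurons was not tested. Canx, the endoplasmic reticulum chaperone calnexin, rose 1.76-fold (adjusted p = 0.0058) and the Hsp70 partner Dnaja2 rose 3.29-fold (adjusted p = 0.011). With the 3′ minus 5′ covariate neither was called (0.56, adjusted p = 0.13, and 0.90, adjusted p = 0.27), and Dnaja2 was not called without P7 replicate 3 (1.35, adjusted p = 0.057) or with cells picked as a covariate (0.98, adjusted p = 0.064).

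**Figure D4:**
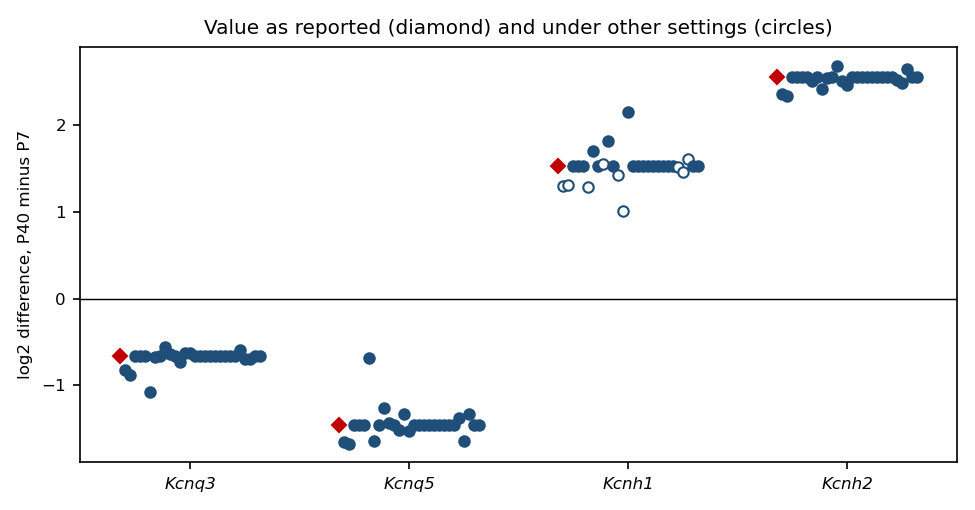
Log2 difference between P7 and P40 for the 4 tested genes, as reported (red diamonds) and under each of 28 other settings (circles, filled where the adjusted p was under 0.05). All circles of Kcnq3, Kcnq5 and Kcnh2 are filled, while Kcnh1 spreads from 1.01 to 2.15 with 9 open circles.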

How the data were processed

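The authors' deposited values are log2 expression levels, background-corrected, normalised and summarised per probe set with GCRMA, per the submitters' processing notes; the sources used here name no version or settings. GCRMA shrinks dim probe sets towards a floor, so small differences under 5 carry little information. Values were used as deposited. Each gene was represented by the brightest, on average over the 15 arrays, of the probe sets annotated to it alone. All tests came from limma 3.58.1, run in R 4.3.3 (means model over 5 ages, trend in the prior variance, 10 residual degrees of freedom, two-sided, Benjamini-Hochberg adjustment over all 9663 genes or 15381 probe sets within a contrast). The scripts were checked on simulated data. SE and 95% intervals are from that fit. A change is a difference of log2 values and a fold is 2 to that power. The number of arrays, 3 animals an age, limits the precision.

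The members, the lists (other Kv7 and EAG-family genes, KCNE subunits, Gq signalling, Kv7 partners, ERG chaperones, and markers of 7 cell classes), the tests and the alternatives were chosen with earlier results of these data known. Genes named were the members, their 3 closest genes by r, all other family genes, and from each list, for either direction, the 2 called genes whose adjusted p was smallest. Chrm1, Ank3 and the single cell type markers named were chosen after their values were seen. Figures were drawn with matplotlib 3.10.9.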

Additional observations from a re-analysis of the deposited data

How the results depend on the processing

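Each result was recomputed under up to 28 alternatives, 15 of which left out 1 array. The signs of Kcnq3, Kcnq5, Kcnh1 and Kcnh2 between P7 and P40 held in all 28, and the calls of Kcnq3 (-1.08 to -0.56), Kcnq5 (-1.67 to -0.69) and Kcnh2 (2.34 to 2.69) held in all 28. Kcnh1 was not called with quantile normalisation (1.30, adjusted p = 0.057), equal array medians (1.31, 0.054), the mean of probe sets (1.29, 0.067) or the 3′ minus 5′ covariate (1.56, 0.12), and ran from 1.01 to 2.15 when 1 array was left out. The 2 calls between neighbouring ages became 4 with array weights, 1 with the 3′ minus 5′ covariate, 0 with cells picked as a covariate, 0 without P15 replicates 2 and 3, and 0 in fits of the 2 ages compared alone, and 1 to 3 when 1 array was left out. Quantile normalisation and the mean of probe sets each kept these 2 calls and added that of Kcnh2 from P15 to P25 (adjusted p = 0.045 and 0.048). Steps near 0 changed sign: Kcnq3 from P25 to P40 was -0.034 with quantile normalisation and -0.001 with array weights, Kcnq3 from P15 to P25 was -0.44 with the mean of probe sets, and Kcnq5 from P7 to P10 was -0.046 with array weights. With 1 array left out these ran from -0.034 to 0.10 for Kcnq3 from P25 to P40, from -0.049 to 0.15 for Kcnq5 from P7 to P10, and from -0.17 to 0.97 for Kcnh1 from P7 to P10. Over all genes the calls between P7 and P40 went from 4365 of 9663 tested genes to 8295 of 18193 without the filter, a larger set of genes. With the 3′ minus 5′ covariate they were 2652 of 9663. Apart from the fits with fewer arrays or genes, the cause was not tested. The F test could not be made for fits of 2 ages alone, and the mean of probe sets gives no value per probe set.

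The replicate numbers are not stated to mark a shared litter or day. The correlation of deviations from the age means had a median of -0.066 over 30 pairs of arrays with the same number and 0.023 over 60 pairs with different numbers. These medians gave no sign of pairing by number. With 3 arrays an age they cannot exclude a shared litter or day, and pairs with the same number reached 0.275. With the replicate block, 4 members were still called between P7 and P40, and Kcnq3 probe set 1458421_at passed the threshold (-1.50, adjusted p = 0.02) while Kcnh1 probe set 1418414_at lost its call from P25 to P40 (3.88, adjusted p = 0.061).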
